A study of Mus musculus with 27 samples.

Results

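The 10 genes described here encode aldo-keto reductases and enzymes of glutathione-dependent detoxification. They were Akr1c18, Akr1c13, Akr1c14 and Akr1b8, the glutathione transferases Gsta4, Gstm1 and Gsto1, and Cbr3, Gclc and Hmox1. All 10 were listed among the 24454 genes measured by RNA-sequencing, and all 10 were among the 13270 genes tested. Akr1c18 was picked on its values in the ΔHD1 lines and under TGFβ, so its values in those comparisons are given as a description with no test. The other 9 genes were named as relatives or pathway partners. Akr1c14 passed the filter of 1 CPM (reads per 1000000 reads assigned to genes) in 5 of 27 libraries, whereas Gsta4, Gsto1, Gclc and Hmox1 passed it in 27.

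Mammary tumour lines from MMTV-PyMT mice (FVB/N) were used, where the mouse mammary tumour virus promoter drives the polyoma middle T oncogene. They derived from tumours of a thoracic mammary gland. The coactivators Bcl9 and Bcl9L (B9/B9L) join β-catenin to Pygopus. ΔHD1/fl lines carried B9/B9L alleles that cannot bind Pygopus beside floxed wild-type alleles, and ΔHD2/fl lines carried alleles that cannot bind β-catenin beside floxed wild-type alleles. In ΔHD1/- and ΔHD2/- lines the floxed alleles had been removed by a Cre-expressing adenovirus, followed by sorting of GFP-positive cells, so that only the mutant protein remained. Each genotype was measured without cytokine, after Wnt3a (100 ng/ml, 3 days) and after TGFβ (2 ng/ml, 4 days). The untreated libraries are labelled 4 days, so Wnt3a libraries also differ from them in the labelled time, although plating and RNA isolation were done together per the labels. An effect of that day and one of Wnt3a cannot be told apart. There were 2 lines of each genotype and 3 of ΔHD2/-, 9 lines and 27 libraries in all, with 21.9 to 33.7 M reads each (1 M is 1000000 reads). Replicates were different cell lines, and a line had the same number under all treatments.

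Some lines stood apart before any treatment. Line 2 of ΔHD1/fl and line 2 of ΔHD1/- had almost no epithelial cadherin, with Cdh1 at 0.522 and 0.237 CPM without cytokine, against 606 to 1145 CPM in the other 7 lines. ΔHD2/- lines 2 and 3 resembled each other (correlation across genes 0.993 to 0.997) more than any of the 15 other replicate pairs did (0.807 to 0.957). That these lines are independent was not shown. Summed epithelial markers ranged from 358 to 19528 CPM without cytokine and from 37.6 to 6672 CPM under TGFβ. The summed fibroblast markers (7 genes, of which Lum stayed under 1 CPM) were at 1182 to 5916 CPM in both lines without Cdh1, and at 0.747 to 272 CPM in the other 7. With TGFβ that sum was higher in 6 of these 7 lines and lower in both lines without Cdh1, and its part in the results was not tested. The immune markers Ptprc, Adgre1 and Cd3e stayed under 1 CPM in all libraries, and the macrophage marker Cd68 ran from 1.43 to 24.5 CPM. Of 3 endothelial markers, Kdr stayed under 1 CPM in all libraries, and Cdh5 did so without cytokine and under Wnt3a only. Pecam1 did not stay under 1 CPM in any treatment. Their sum reached 2.07 CPM without cytokine, 1.05 CPM under Wnt3a and 6.47 CPM under TGFβ.

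Aldo-keto reductases use NADPH to reduce aldehydes, ketones and steroids. Glutathione transferases join reactive compounds to glutathione, a tripeptide whose synthesis begins with glutamate-cysteine ligase. Many genes of both families are known targets of NRF2 (Nfe2l2), a transcription factor that KEAP1 holds at low levels until cells meet oxidants or electrophiles.

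Akr1c14, Akr1c18 and Akr1c13 lie together on chromosome 13 (GRCm38, also called mm10). In this order, at 4048991 to 4090560, 4132615 to 4150646 and 4191168 to 4205604, they are the first 3 of 8 Akr1c genes in that cluster. Gclc (77754535 to 77794489) and Gsta4 (78191966 to 78209349) lie near each other on chromosome 9. RefSeq promoter windows, from 250 bases before to 50 bases after a start on GRCm38.p6, were matched for 7 of the 10 genes. Gsta4, Gclc and Hmox1 had no entry. The windows of Akr1c18 and its neighbour Akr1c13 are shown because these neighbours differed from no cytokine in opposite directions under TGFβ, and those of Gstm1 and Gsto1 because these transferases did so as well. They are printed 5′ to 3′ on the strand of the gene, and capitals mark the Smad box CAGACA or its reverse complement. Akr1c18 is at chr13:4150597-4150896 (minus strand), Akr1c13 at chr13:4190937-4191236 (plus strand), Gstm1 at chr3:108017924-108018223 (minus strand) and Gsto1 at chr19:47854723-47855022 (plus strand).
Akr1c18: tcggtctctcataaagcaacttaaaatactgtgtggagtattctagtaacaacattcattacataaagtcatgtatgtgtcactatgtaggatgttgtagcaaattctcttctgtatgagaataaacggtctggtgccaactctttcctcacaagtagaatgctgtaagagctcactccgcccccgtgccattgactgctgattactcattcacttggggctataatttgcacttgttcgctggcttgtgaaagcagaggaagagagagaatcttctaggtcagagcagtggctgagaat
Akr1c13: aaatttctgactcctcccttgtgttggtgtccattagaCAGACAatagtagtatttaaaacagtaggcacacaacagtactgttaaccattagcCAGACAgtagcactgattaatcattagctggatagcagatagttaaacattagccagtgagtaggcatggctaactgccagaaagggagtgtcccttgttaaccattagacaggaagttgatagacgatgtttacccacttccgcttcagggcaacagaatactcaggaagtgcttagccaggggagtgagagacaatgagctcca
Gstm1: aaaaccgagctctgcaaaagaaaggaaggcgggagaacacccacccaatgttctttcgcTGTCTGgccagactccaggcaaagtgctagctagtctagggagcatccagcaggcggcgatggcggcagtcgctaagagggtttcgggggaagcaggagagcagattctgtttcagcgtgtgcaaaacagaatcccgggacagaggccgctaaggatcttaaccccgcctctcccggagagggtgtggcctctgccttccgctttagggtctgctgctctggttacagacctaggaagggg
Gsto1: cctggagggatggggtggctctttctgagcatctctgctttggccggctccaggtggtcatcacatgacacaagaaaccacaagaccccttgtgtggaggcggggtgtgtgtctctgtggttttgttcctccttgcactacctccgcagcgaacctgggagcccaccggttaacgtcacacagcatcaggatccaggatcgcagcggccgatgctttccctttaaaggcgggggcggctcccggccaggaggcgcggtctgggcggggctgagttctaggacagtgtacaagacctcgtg
The Smad box was read on both strands and was found in 21.0% of 32851 RefSeq promoter windows of the same length. These 7 genes had 8 windows, since Gstm1 had a second, overlapping one at chr3:108017769-108018068. The box occurred in 3 of the 8 windows, those of Akr1c13 (2 copies) and Akr1c14 and the printed window of Gstm1, and was not in the second window of Gstm1. The xenobiotic response element core GCGTG (32.4% of all windows) was found in both windows of Gstm1 and in those of Akr1b8 and Akr1c14, and the E-box CACCTG (20.2%) in Gsto1. The antioxidant response element core TGACNNNGC (12.4%) and the AP-1 site TGAGTCA (5.2%) were in none of these windows. A match describes the letters of the window and not a bound site.

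Akr1c18 is the 20α-hydroxysteroid dehydrogenase that inactivates progesterone. ΔHD1/fl lines 1 and 2 had 36.9 and 22.4 CPM without cytokine, where ΔHD1/- lines 1 and 2 had 0 and 1.07 CPM. In the ΔHD2/fl lines it was at 2.07 and 2.89 CPM, and in the ΔHD2/- lines at 2.18, 0 and 0 CPM. The ΔHD1/fl lines were therefore the highest without cytokine, and 3 lines of the recombined genotypes had no read. Under TGFβ it was at 0.168 and 2.20 CPM in the ΔHD1/fl lines, which is 219-fold and 10.2-fold below the same lines without cytokine. ΔHD2/fl lines 1 and 2 were at 0 and 0.0355 CPM under TGFβ, where line 1 was at least 18.2-fold lower against a floor of 3 reads in that library. The highest value under TGFβ in any recombined line was 0.0720 CPM. In all, TGFβ values were lower in 6 lines and equal in the 3 lines that had no read in either library. These values chose the gene.

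Under Wnt3a, Akr1c18 was at 23.8 and 37.4 CPM in the ΔHD1/fl lines, so its values overlapped those without cytokine. In the ΔHD2/fl lines it stood at 16.4 and 20.3 CPM, 7.92-fold and 7.03-fold above the same lines without cytokine. The ΔHD2/- lines had 1.39, 0.0830 and 0.0358 CPM under Wnt3a, and the ΔHD1/- lines 0 and 2.87 CPM. Ordered by group mean, ΔHD1/fl under Wnt3a (30.6 ± 9.59 CPM, SD, n = 2) and without cytokine (29.6 ± 10.2, SD, n = 2) came first and overlapped. ΔHD2/fl under Wnt3a (18.3 ± 2.77, SD, n = 2) took the third place and overlapped neither neighbour. From the fourth place, ΔHD2/fl without cytokine (2.48 ± 0.579, SD, n = 2), each group overlapped the next.

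**Figure D1:**
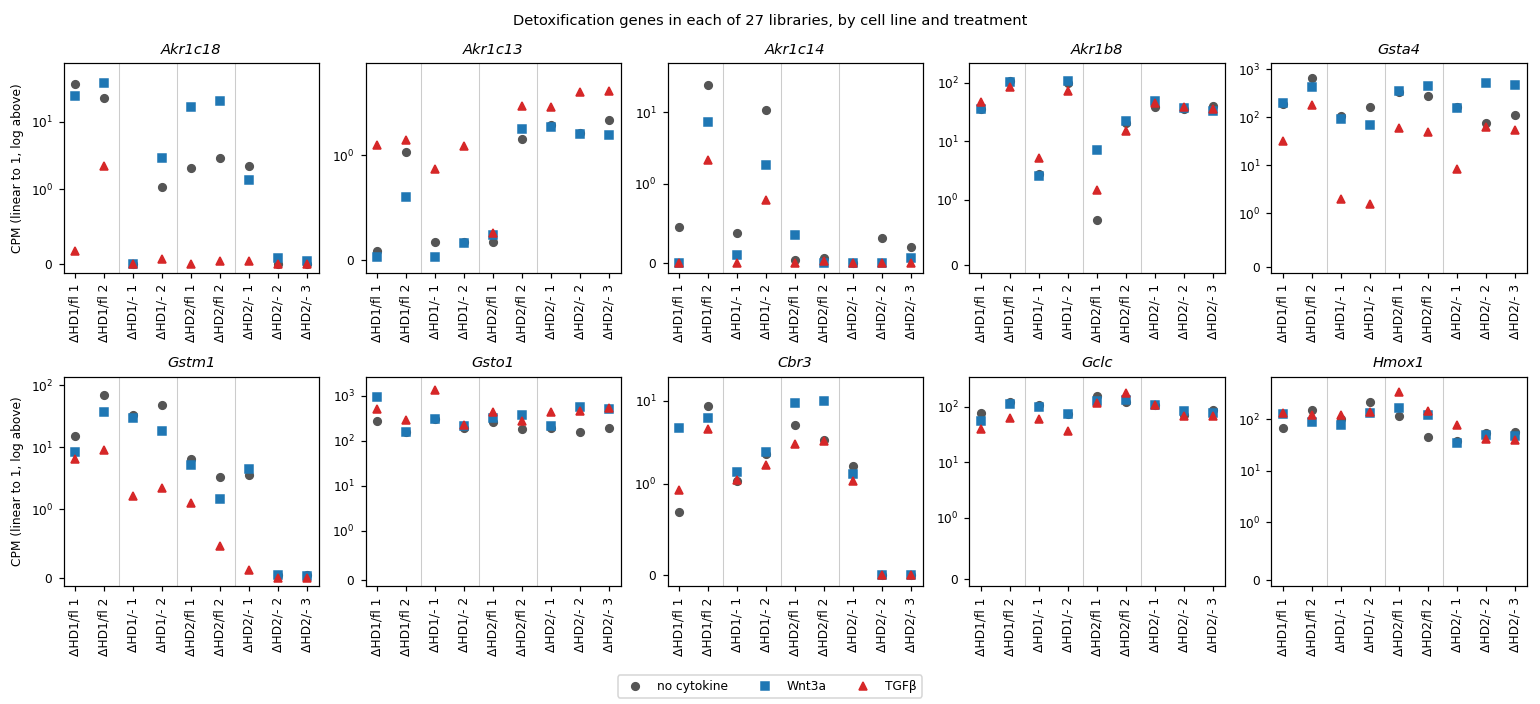
CPM of the 10 genes in each library, by cell line (horizontal axis) and treatment (grey circles, no cytokine; blue squares, Wnt3a; red triangles, TGFβ), on an axis that is linear up to 1 CPM and logarithmic above. Akr1c18 lies at 2.20 CPM or less in every TGFβ library, and under TGFβ Gsta4 is lower than without cytokine in all 9 lines and Gstm1 in the 7 lines with more than 3 reads.

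Akr1c14, a 3α-hydroxysteroid dehydrogenase, was highest in the lines that lacked Cdh1. ΔHD1/fl line 2 had 24.4 CPM without cytokine, 7.32 under Wnt3a and 2.13 under TGFβ. ΔHD1/- line 2 had 10.7, 1.82 and 0.792 CPM in the same order. In the other 7 lines the highest value was 0.457 CPM. It was lower under TGFβ in the 6 lines that had more than 3 reads in either library, while the other 3 lines had 2 reads or fewer in both. Its mean change of -0.91 ± 0.53 (SE) in log2(CPM + 1) did not pass the test (adjusted p = 0.253, limma with Benjamini-Hochberg adjustment). With cell line as a block the adjusted p was 0.00857, with the size under the log2 threshold of 1. The size depends on the scale, at -3.38 with edgeR (adjusted p = 0.163). Without ΔHD1/fl line 1 it was called (-1.22, adjusted p = 0.0417), and without ΔHD1/fl line 2 it was -0.60.

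Akr1c13 encodes a reductase of hydroxysteroids and xenobiotics. It was low in all lines, from 0.0317 to 4.75 CPM, and TGFβ values were higher than those without cytokine in 9 of 9 lines. ΔHD2/- lines 2 and 3 had the highest values under TGFβ, at 4.70 and 4.75 CPM, against 1.71 and 2.39 CPM without cytokine. The mean change was 0.67 ± 0.24 (SE) with an adjusted p of 0.0629, and 0.000438 with cell line as a block, below the size threshold in both. With edgeR it was 1.63, past that threshold, with an adjusted p of 0.0963. It is a near copy of Akr1c12, and reads that fit both genes were dropped by the unique-hit mapping, so its level is uncertain. The 5 remaining genes of the cluster, Akr1c12, Akr1c19, Akr1c6, Akr1c20 and Akr1c21, did not exceed 0.432 CPM in any library.

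Akr1b8 encodes an aldose reductase-like enzyme that reduces aldehydes. It separated lines more than treatments, with 105 CPM in ΔHD1/fl line 2 and 98.1 in ΔHD1/- line 2 but 2.82 in ΔHD1/- line 1 and 0.690 in ΔHD2/fl line 1, all without cytokine. The 3 ΔHD2/- lines lay between 33.5 and 48.5 CPM in all treatments. ΔHD2/fl line 1 alone changed by more than 1 log2 unit with Wnt3a, to 7.01 CPM. Its mean TGFβ change was 0.07 ± 0.77 (SE), with a 95% interval of -1.55 to 1.69. The gene overlaps Gm13858, and because use of strand in the counting is not given in the sources used here, reads of both cannot be told apart.

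The first comparison asked what TGFβ, a cytokine that drives epithelial-mesenchymal transition, did to these genes on average over the 4 genotypes. Gsta4 and Gstm1 fell, and the remaining 7 genes tested did not pass. That is 2 of 9 genes called (adjusted p of at most 0.05 and a log2 change of at least 1), where 5.42% of all genes tested were called, 3.56% lower and 1.86% higher. With cell line as a block 3 of 9 were called, against 8.92% of all genes, and the third was Gsto1, which rose. The median change of the 9 genes was -0.22, and that of all genes was -0.16. With median-of-ratios scaling the median of all genes moved to -0.02, and the split of all calls went from 247 higher and 472 lower to 318 higher and 316 lower. No direction named here for Gsta4, Gstm1 or Gsto1 turned under that scaling.

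Gsta4 conjugates 4-hydroxynonenal, an aldehyde formed from oxidised lipids. In ΔHD1/fl lines 1 and 2 it went from 193 and 678 CPM without cytokine to 32.0 and 183 CPM under TGFβ. In ΔHD1/- lines 1 and 2 it went from 108 and 165 CPM to 2.03 and 1.55 CPM, 53.2-fold and 107-fold lower. These were the lowest of all its 27 values. ΔHD2/fl lines 1 and 2 went from 333 and 275 CPM to 61.2 and 50.2 CPM, and ΔHD2/- lines 1, 2 and 3 from 163, 75.5 and 110 CPM to 8.25, 63.5 and 54.9 CPM. The last 2 of these lines changed least, 1.19-fold and 2.00-fold. Gsta4 was lower in 9 of 9 lines. Its mean change was -3.01 ± 0.42 (SE) in log2(CPM + 1) with an adjusted p of 0.000189, and it was called under all 17 settings tried, with adjusted p from 1.73e-05 to 0.00387.

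Gstm1 is a mu-class transferase. The 4 ΔHD1 lines held most of it, with 15.2 and 69.4 CPM in ΔHD1/fl and 33.0 and 48.1 CPM in ΔHD1/- lines without cytokine. Under TGFβ these lines had 6.52 and 9.12 CPM, and 1.67 and 2.20 CPM. In ΔHD1/- the values with and without TGFβ lay far apart, 19.8-fold and 21.9-fold. ΔHD2/fl lines went from 6.51 and 3.33 CPM to 1.25 and 0.461 CPM, and ΔHD2/- line 1 went from 3.58 to 0.114 CPM. ΔHD2/- lines 2 and 3 had at most 1 read in each of their libraries, so no change could be read from them. The mean change was -2.03 ± 0.43 (SE; adjusted p = 0.00387), and it was called under all 17 settings, with adjusted p from 7.06e-05 to 0.0285 and changes from -3.38 (edgeR) to -1.82. The gene has close copies in its cluster, and unique-hit mapping may split their reads.

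Gsto1, an omega-class enzyme that reduces dehydroascorbate and mixed disulfides, moved the other way. It rose under TGFβ with cell line as a block (log2 change 1.04 ± 0.25, SE, adjusted p = 0.00510) and with edgeR on recovered reads (1.32, adjusted p = 0.0203), but it missed the threshold without a block (adjusted p = 0.0541). Values were 276 and 157 CPM in ΔHD1/fl lines without cytokine and 515 and 297 CPM with TGFβ. In ΔHD1/- lines 311 and 189 CPM became 1344 and 226 CPM, and in ΔHD2/fl lines 255 and 179 CPM became 432 and 278 CPM. In ΔHD2/- lines 196, 160 and 197 CPM became 433, 463 and 524 CPM, with no overlap between TGFβ and no cytokine. Under Wnt3a the ΔHD2/- lines had 209, 562 and 519 CPM, which overlapped the TGFβ values. TGFβ values were above those without cytokine in 9 of 9 lines.

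Gclc, the catalytic subunit of glutamate-cysteine ligase, ranged from 36.4 to 176 CPM over all libraries. Under TGFβ it differed by -0.94, -0.95, -0.81 and -1.005 log2 units in the 4 ΔHD1 lines. In ΔHD2/fl lines 1 and 2 it differed by -0.39 and 0.52, and in ΔHD2/- lines 1, 2 and 3 by 0.05, -0.09 and -0.34. Gclc was lower in 7 of 9 lines. The mean change was -0.48 ± 0.18 (SE; adjusted p = 0.0767, and 0.00103 with the block), under the size threshold. Hmox1 encodes haem oxygenase 1, which cleaves haem to biliverdin, iron and carbon monoxide. It went from 113 and 45.2 CPM to 334 and 144 CPM in ΔHD2/fl lines and from 37.3 to 78.3 CPM in ΔHD2/- line 1, but from 53.2 and 57.0 CPM to 41.2 and 40.0 CPM in ΔHD2/- lines 2 and 3. In ΔHD1 lines it was higher in both lines numbered 1 and lower in both lines numbered 2. The mean change of 0.45 ± 0.24 (SE) did not pass the test (adjusted p = 0.225). Cbr3, a carbonyl reductase, had a mean change of -0.22 ± 0.34 (SE; 95% interval -0.93 to 0.49).

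**Figure D2:**
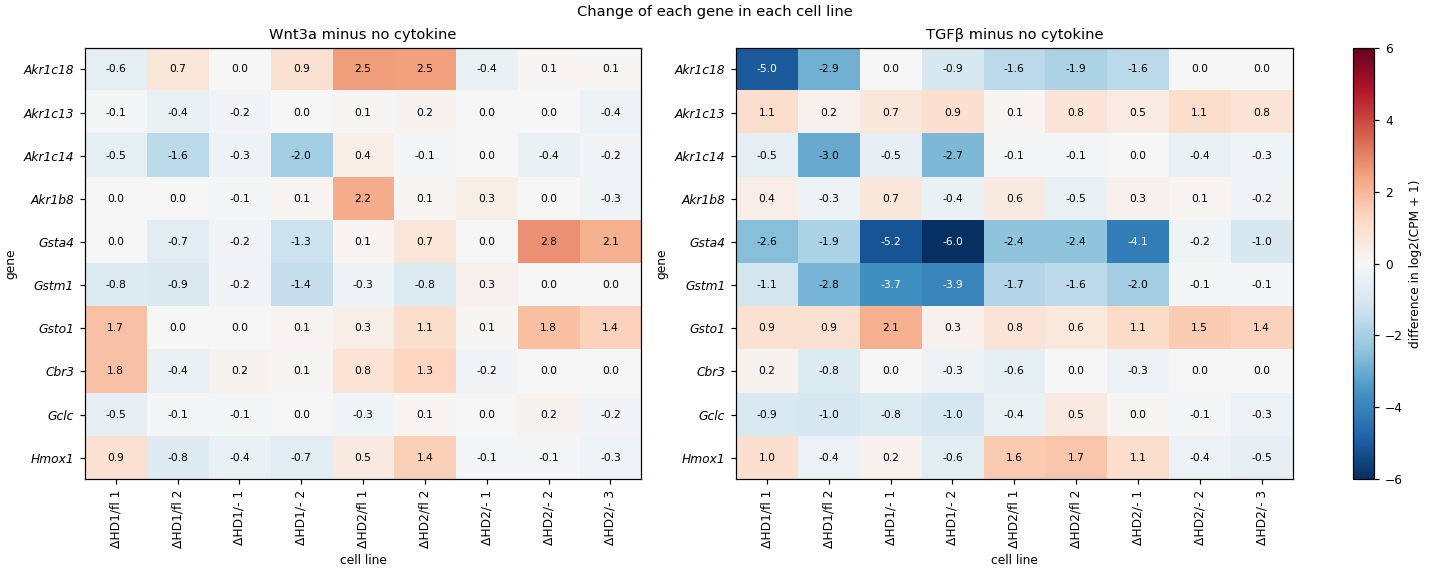
Difference in log2(CPM + 1) from the same line without cytokine, for each gene (rows) and each cell line (columns), under Wnt3a (left) and TGFβ (right), with red for higher and blue for lower. Under TGFβ the row of Gsta4 is lower in all 9 lines, down to -6.03 in ΔHD1/- line 2, that of Gstm1 is lower in the 7 lines with more than 3 reads, and that of Gsto1 is higher in all 9.

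Within single genotypes, Gsta4 (-5.60 ± 0.88, SE, adjusted p = 0.00486) and Gstm1 (-3.81 ± 0.89, SE, adjusted p = 0.0406) fell in ΔHD1/- lines. These were 2 of 9 genes, where 1.43% of all genes were called. Neither call held with only the compared groups in the fit, and edgeR called Gsta4 alone (adjusted p = 0.0157). Leaving out either ΔHD1/- line left 1 library a group, with the spread taken from the other groups. The changes were then -6.03 and -5.17 for Gsta4 (adjusted p = 0.0568 and 0.159) and -3.94 and -3.67 for Gstm1 (adjusted p = 0.319 and 0.365). With the block Akr1c14 was called lower too, so that 3 of 9 genes passed, against 9.33% of all genes. Its value rests on line 2, since it changed by -2.71 there and by -0.47 in line 1 (9 reads against 0). In ΔHD1/fl lines limma called 0 of 9 genes (background 0.211%, 3 genes at an unadjusted p under 0.05, edgeR 0), and with the block 2, Akr1c14 and Gstm1, both lower (background 5.42%). Akr1c14 differed by -3.02 in line 2 and by -0.54 in line 1. In ΔHD2/fl lines it called 0 of 9 (background 0.286%, 2 genes at an unadjusted p under 0.05, edgeR 0), and with the block 2, Gsta4 lower and Hmox1 higher by 1.60 (adjusted p = 0.0326, background 5.24%). In ΔHD2/- lines it called 0 of 9 (background 0.806%, 2 genes at an unadjusted p under 0.05, edgeR 0), and with the block Gsta4 alone, which fell by 1.79 on the log2 scale (adjusted p = 0.0433, background 6.03%). That value rests on line 1, which changed by -4.15 where lines 2 and 3 changed by -0.25 and -0.98. Over the 11 settings the mean of Gsta4 ran from -2.57 to -0.61 and was called in 1. Gsto1 rose by 1.27 to 1.48 over these 11 settings. It was called in 1, limma with only the compared groups in the fit (adjusted p = 0.0245).

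Epithelial markers differed by line and by gene under TGFβ. Cdh1 went from 606 to 148 CPM in ΔHD1/fl line 1 and from 817 to 4.29 CPM in ΔHD1/- line 1, and stayed at 369 CPM or more in the 5 ΔHD2 lines, where it was lower in 5 of 5. Epcam was higher under TGFβ in 3 of these 5 lines, from 641 to 777 CPM in ΔHD2/fl line 2 and from 804 to 965 and 910 to 951 CPM in ΔHD2/- lines 2 and 3. In ΔHD1/fl line 1 and ΔHD1/- line 1 it went from 390 to 117 CPM and from 263 to 12.5 CPM. Gsta4 and Gstm1 were also lower in ΔHD1/fl line 2 and ΔHD1/- line 2, where Cdh1 was under 1 CPM in all treatments. The part of any epithelial change in these values was not tested in any line. In bulk RNA, fewer cells that express a gene and less of its RNA per cell cannot be told apart.

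**Figure D3:**
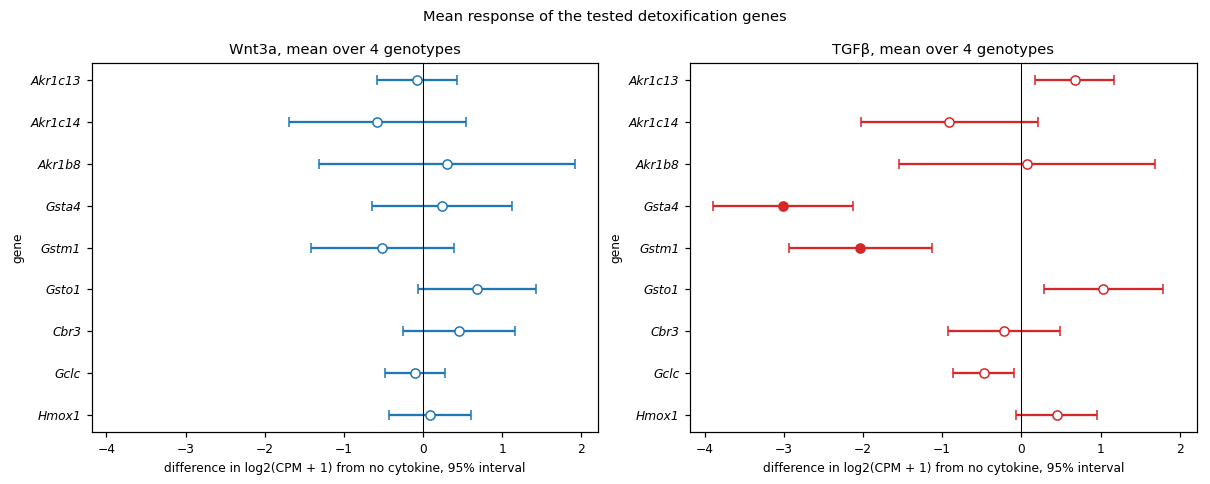
Mean difference in log2(CPM + 1) from no cytokine over 4 genotypes for Wnt3a (left) and TGFβ (right), for the 9 genes other than Akr1c18, which was picked on libraries of these comparisons, with 95% intervals from limma and filled points for called genes. Gsta4 and Gstm1 under TGFβ are the only filled points.

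Wnt3a, the ligand of canonical Wnt signalling, was compared in the same way. The untreated libraries were those of the TGFβ comparison, including the ones that chose Akr1c18, which was therefore left out of the tests. Limma called 0 of 9 genes in the mean response (background 0.0226%) and had 0 at an unadjusted p under 0.05, and edgeR called 0. With the block it called 0 as well (background 0.241%). No gene was called within any genotype by limma, with or without the block, or by edgeR. The background was 0.0151% for ΔHD1/fl lines, 0.00754% for ΔHD1/-, 0.113% for ΔHD2/fl and 0.00754% for ΔHD2/-, and with the block 0.00754%, 0.00754%, 0.324% and 0.00754%. At an unadjusted p under 0.05 there were 0, 0, 0 and 1 genes in the same order.

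Single lines differed in their Wnt3a values. Gsta4 went from 75.5 to 518 CPM and from 110 to 478 CPM in ΔHD2/- lines 2 and 3 with Wnt3a, 6.86-fold and 4.36-fold, while ΔHD2/- line 1 stayed at 163 and 160 CPM. It was lower in both lines without Cdh1, from 678 to 424 CPM and from 165 to 68.0 CPM. Gsto1 went from 160 to 562 CPM and from 197 to 519 CPM in ΔHD2/- lines 2 and 3, from 276 to 924 CPM in ΔHD1/fl line 1 and from 179 to 375 CPM in ΔHD2/fl line 2. The other 5 lines changed by 1.27-fold or less, and Gsto1 was higher with Wnt3a in 8 of 9 lines. ΔHD2/- lines 2 and 3 were alike in general, and their shared values are not shown to be independent.

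Removal of the floxed alleles was compared next. Between ΔHD1/- and ΔHD1/fl lines limma called 0 of the 9 genes other than Akr1c18 without cytokine, under Wnt3a and under TGFβ (backgrounds 0.0678%, 0.0452% and 0.0301%). There were 0, 0 and 1 genes at an unadjusted p under 0.05, and edgeR called 0 in each. The 1 gene was Gsta4 under TGFβ, at 2.03 and 1.55 CPM in ΔHD1/- against 32.0 and 183 CPM in ΔHD1/fl, with no overlap. Its difference of -4.81 ± 0.88 (SE) had an adjusted p of 0.0697, and of 0.0128 with the line number as a block (background 0.633%). Whether lines of the same number share a tumour is not given by the labels.

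Between ΔHD2/- and ΔHD2/fl lines under Wnt3a, Cbr3, which reduces carbonyl groups of quinones and drugs, was lower in the recombined lines. This was 1 of the 9 genes other than Akr1c18, where 0.686% of all genes were called, and 1 again with the line number as a block (background 1.36%). Cbr3 stood at 9.50 and 9.84 CPM in ΔHD2/fl under Wnt3a against 1.31, 0 and 0 CPM in ΔHD2/-, with no overlap and a difference of -3.01 ± 0.64 (SE; adjusted p = 0.0338). It was called in 5 of 13 settings (adjusted p 0.00382 to 0.604). The call was lost with the compared groups alone (0.142), with ΔHD2/- lines 2 and 3 averaged to 1 (0.304), with edgeR, with a pseudocount of 0.1 (0.124), and without either ΔHD2/fl line or without ΔHD2/- line 2 or 3. Akr1c18 had 16.4 and 20.3 CPM in ΔHD2/fl against 1.39, 0.0830 and 0.0358 CPM in ΔHD2/- lines under Wnt3a, again with no overlap. Because libraries that chose Akr1c18 enter every fit over all groups, it was tested only in a fit of the ΔHD2 libraries under Wnt3a. There its difference of -3.79 ± 0.47 (SE) did not pass (adjusted p = 0.102).

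Without cytokine limma called 0 of the 9 genes other than Akr1c18 between ΔHD2/- and ΔHD2/fl lines (background 0.55%, 2 genes at an unadjusted p under 0.05, edgeR 0). The 2 genes were Gstm1 and Cbr3, which had at most 1 read in ΔHD2/- lines 2 and 3. Cbr3 had 5.04 and 3.37 CPM in ΔHD2/fl and 1.62, 0 and 0 CPM in ΔHD2/- lines, and had no read in lines 2 and 3 under any treatment. Under TGFβ limma called 0 of 9 (background 0.354%, 4 genes at an unadjusted p under 0.05, edgeR 0). With the block it called Hmox1 (background 0.867%), at 334 and 144 CPM in ΔHD2/fl against 78.3, 41.2 and 40.0 CPM in ΔHD2/- lines. Its difference was -2.10 ± 0.47 (SE; adjusted p = 0.0667, and 0.0393 with the block), and the groups did not overlap.

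An interaction term asked whether recombined lines responded differently from fl lines. No gene was called for the TGFβ response of ΔHD1 (background 0.00754%), the Wnt3a response of ΔHD1 (background 0%), the TGFβ response of ΔHD2 (background 0.0301%) or the Wnt3a response of ΔHD2 (background 0.0151%). Limma found 1, 0, 1 and 0 of the 9 genes other than Akr1c18 at an unadjusted p under 0.05 in that order, and edgeR called 0 in each. The largest was Gsta4 in the TGFβ response of ΔHD1, where the response in ΔHD1/- minus that in ΔHD1/fl lines was -3.38 with a 95% interval of -5.99 to -0.76 (adjusted p = 1).

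The wider pathway was read from lists of related genes in the mean TGFβ response. Of 10 NRF2 regulators, Maff, a small partner of NRF2 on DNA, rose (1.02 ± 0.32, SE, adjusted p = 0.0376), and the median of the list was -0.03. Nfe2l2 itself was lower in 9 of 9 lines (-0.61 on average, adjusted p = 0.0381), and so was Keap1 (-0.62, adjusted p = 0.000806), both under the size threshold. Of 21 other NRF2 target genes tested, 3 fell and none rose, with a list median of -0.16. They were the ferritin heavy chain Fth1 (-1.21 ± 0.35, SE), G6pdx (-1.15 ± 0.19, SE), which supplies NADPH, and the biliverdin reductase Blvrb (-1.10 ± 0.27, SE). With median-of-ratios scaling none of the 3 passed (-1.04, -0.98 and -0.95) and the list median was 0.01, and edgeR called Fth1 and Blvrb. With the block 5 fell, where 8.92% of all genes were called, adding the epoxide hydrolase Ephx1 (-1.71) and the quinone reductase Nqo1 (-1.69). Nqo1 ranged from 0.0450 to 375 CPM without cytokine and had at most 3 reads in ΔHD2/- lines 2 and 3 without cytokine and under TGFβ, the lines in which Gstm1 and Cbr3 were also at or near 0.

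Other glutathione transferases had the lowest list median, -0.52 over 15 genes tested of 22. Mgst3, a microsomal transferase, fell (-1.36 ± 0.17, SE, adjusted p = 8.26e-05), as did Gstm7 (-1.001 ± 0.29, SE, adjusted p = 0.0263), and both were lower in 9 of 9 lines. Mgst3 was called by edgeR and with median-of-ratios scaling as well. Gstm7, at the size threshold without that scaling, was called by neither. It was at -0.92 with that scaling and at -1.94 with edgeR (adjusted p = 0.115). With the block Mgst1 and Gsta1 were called lower too, so that 4 fell. Of the haem and carbonyl partners, 2 of 8 fell, Blvrb and Cbr2 (list median -0.47). Cbr2, a carbonyl reductase, went from a median of 93.2 CPM (20.6 to 249) without cytokine to 6.50 CPM (0.605 to 44.9) under TGFβ, a change of -3.20 ± 0.50 (SE; adjusted p = 0.000469). With median-of-ratios scaling Cbr2 kept its call and Blvrb lost it, and edgeR called both.

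Glutathione synthesis, recycling and use gave 0 calls among 22 genes (median -0.26), and with the block 1, the glutamyl transferase Ggt6 (-1.18). EdgeR called 3 of them, Ggt6 (-5.12, adjusted p = 0.0422) and the aminopeptidase Anpep (-4.20, adjusted p = 0.00557) lower and Ggct (1.31, adjusted p = 0.0183) higher. With median-of-ratios scaling the list median was -0.09. Gclm, the modifier subunit that pairs with Gclc, was lower in 9 of 9 lines (-0.56 on average, adjusted p = 0.0495), under the size threshold. No call was made among 5 of 13 other aldo-keto reductases tested (median -0.21) or among 5 of 8 genes of progesterone handling tested (median -0.43). Under Wnt3a no gene of any of the 7 lists was called, with or without the block. Medians of the 7 lists under TGFβ ran from -0.52 to -0.03, from -0.36 to 0.14 with median-of-ratios scaling and from -1.26 to 0.15 with edgeR, where the lowest was again that of the other glutathione transferases. Counts without the block are read against the 5.42% of all genes called under TGFβ and the 0.0226% under Wnt3a, and those with the block against 8.92% and 0.241%.

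**Figure D4:**
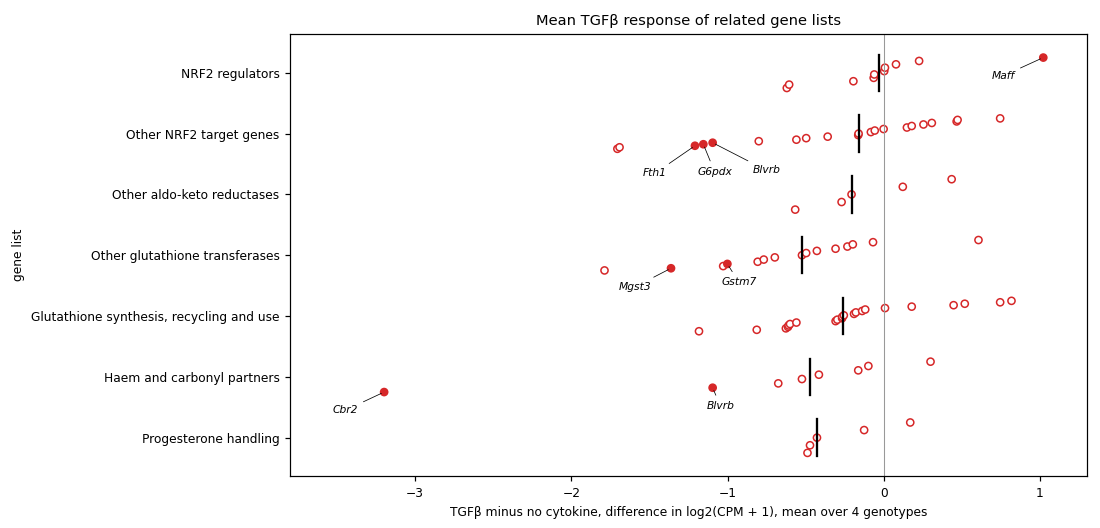
Mean TGFβ response, as a difference in log2(CPM + 1) from no cytokine over 4 genotypes, of every tested gene in 7 lists of related genes (rows), with filled points and names for called genes and a black bar at the list median. Cbr2 is farthest to the left at -3.20, and Maff is the only called gene to the right of 0.

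The genes most like Akr1c18 over the 27 libraries were named by the Pearson correlation of log2(CPM + 1), as a description without a p. They were Aspg (0.858), Dio2 (0.857), Chil1 (0.853), Il1rn (0.845) and Rapgefl1 (0.828). The libraries share 9 lines and 3 treatments, so the points are not independent. Among the 10 genes the nearest to Akr1c18 was Cbr3 (0.68), and after subtraction of each line's mean it was again Cbr3 (0.665). Within lines, the closest pair was Gsta4 and Gstm1 (0.864), and the most opposed pair was Akr1c13 and Gsta4 (-0.793).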

How the data were processed

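RNA was measured in 27 libraries of 9 mouse tumour cell lines. The authors prepared stranded poly(A) libraries, used STAR to map single-end reads to mm10, discarding reads with more than 1 hit, and assigned each read to the RefSeq gene in whose exon it began, with QuasR. The deposited table held CPM values without further scaling by the authors. Values were multiples of a fixed step per library, the CPM of 1 read (100% of values within 0.01 reads), which gave back the reads. Libraries held 21.9 to 33.7 M reads (1 M is 1000000 reads). The limit for a count of 0, set at 3 reads, was 0.0890 to 0.137 CPM and covers counting error only. Of 24454 Entrez identifiers, 24374 matched a symbol.

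A gene had to reach 1 CPM in 2 or more libraries, which 13270 did. Their log2(CPM + 1) values, a scale that understates changes of low genes, were fitted with limma 3.58.1 (R 4.3.3, eBayes with trend and robust on), using 12 group means over all libraries and no block. Calls needed both an adjusted p (Benjamini-Hochberg over all genes) of 0.05 or less and a log2 change of 1 or more in size. On simulated counts the fit was checked to find planted changes. The simulated libraries had no cell-line effect, so the check does not cover correlation between libraries of the same line. The members and lists were chosen with earlier results of these data known. Akr1c18 was tested only between ΔHD2 genotypes under Wnt3a, in a fit of those libraries alone, a narrower use than planned, adopted after its values were seen. All 10 members were named, with up to 3 called genes each way per list and the 5 genes most correlated with Akr1c18. Cdh1, Nqo1, Nfe2l2, Keap1, Gclm and the neighbours in the Akr1c cluster, and genes called only with the block or edgeR, were named after their values were seen.

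In all 27 pairs of libraries from the same cell line, deviations from the group means correlated (0.509 to 0.94). Each number is 1 cell line, and treatment responses were therefore refitted with cell line as a block. For recombined against fl lines of the same number the 12 correlations were 0.0871 to 0.472. Other settings were the replicate block, edgeR 4.0.16 on the recovered reads, median-of-ratios scaling, a pseudocount of 0.1, no filter, only the compared groups, 1 line left out at a time, and ΔHD2/- lines 2 and 3 averaged. Differences in response between the ΔHD2 and ΔHD1 families were added after seeing the data. Promoter windows are from RefSeq on GRCm38.p6. Other genotypes of the study were not analysed here.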

Additional observations from a re-analysis of the deposited data

How the results depend on the processing

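Of the counts of called genes, 183 stayed within 1.5 times their value under an alternative and 27 did not. Of the single changes, 320 stayed, 15 gained and 17 lost the call and 6 changed sign. With the replicate block the count went to 2 in the TGFβ responses of ΔHD1/fl and ΔHD2/fl lines and to 1 in ΔHD2/- lines and in ΔHD1/- against ΔHD1/fl and ΔHD2/- against ΔHD2/fl lines under TGFβ. Among the members the block moved no other count beyond 1.5 times, and in the mean TGFβ response it moved the lower calls from 3 to 5 among other NRF2 target genes, from 2 to 4 among other glutathione transferases and from 0 to 1 in glutathione synthesis, recycling and use. No filter gave 1 in both of these recombined comparisons, and a pseudocount of 0.1 gave 1 for ΔHD1. For the TGFβ response of ΔHD1/- lines the count of 2 went to 0 with the compared groups alone, to 1 with edgeR, with median-of-ratios scaling and with a pseudocount of 0.1, and to 0 without either line. For the TGFβ response of ΔHD2/- lines the compared groups alone gave 1, Gsto1, which rose. For ΔHD2/- against ΔHD2/fl lines under Wnt3a the count of 1 went to 0 with the compared groups alone, with lines 2 and 3 averaged, with edgeR and with a pseudocount of 0.1. Leaving out 1 line at a time gave 0 to 1 there, 0 to 2 without cytokine and 0 to 2 under TGFβ, and 0 to 1 for ΔHD1/- against ΔHD1/fl lines under TGFβ. Without ΔHD2/- line 1 there were 2 calls without cytokine, and without ΔHD2/fl line 2 there were 2 under TGFβ. The mean TGFβ change of Akr1b8 was -0.039 with edgeR and -0.062 to 0.21 with 1 line left out, and the mean Wnt3a change of Hmox1 was -0.12 to 0.30 with 1 line left out. Except where fewer libraries entered the fit, the cause was not tested. With 2 or 3 lines a group, intervals of several log2 units remained for Akr1b8 and Akr1c14, and values under 0.0890 CPM could not be told from 0.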

Other observations

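The ΔHD1 and ΔHD2 families were compared in their responses to TGFβ and Wnt3a, a comparison added after seeing the data. In the recombined lines, the TGFβ response of ΔHD2/- minus that of ΔHD1/- lines was 3.81 ± 1.13 (SE) log2 units for Gsta4, with a 95% interval of 1.42 to 6.19, and 3.09 ± 1.15 (SE) for Gstm1, with an interval of 0.66 to 5.52. The value for Gstm1 turned to -0.50 with edgeR, and ΔHD2/- lines 2 and 3, at 1 read or fewer, could not fall. Neither passed limma's test across all genes (adjusted p = 1 for both), and under the cell-line block the lowest adjusted p of the 9 genes tested was 0.0926. Over all genes, 0.00754% were called there, and 0.369% with the block. Limma had 2 of 9 genes at an unadjusted p under 0.05 there, and edgeR called 0 with 1 such gene. For the fl lines under TGFβ, and for both kinds of lines under Wnt3a, limma called 0 of 9 genes (background 0.0151% for the fl lines under either cytokine and 0% for the recombined lines under Wnt3a), with 0 at an unadjusted p under 0.05 in each, and edgeR called 0.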
